A study of Mus musculus with 16 samples.

Results

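Chromosomes 15 and 19 stood above the other autosomes in the number of DNA break-end positions mapped per window in AB22 cells, a mouse cell line derived from malignant mesothelioma, a cancer of the mesothelium that covers lungs and abdominal organs. The windows described here are fixed 100 kb stretches of the mm10 genome on these chromosomes. They were chosen from the readout itself: in each library the distinct break-end positions of a window were divided by the median over all autosomal windows, and the levels of chromosomes 15 and 19 were the highest. In all, 1589 windows were kept of 23831 autosomal windows, 1009 on chromosome 15 and 580 on chromosome 19, and 65 windows of these chromosomes were left out because they held fewer than 20 positions over all libraries or were the last window of a chromosome. BLISS ligates an adapter to every free DNA end in fixed cells, so each deposited position marks where a double-strand break end was captured.

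The cells carried an inducible pTRIPZ hairpin, either a control (shCTRL) or one against HMGB1 (shHMGB1), a DNA-bending protein of chromatin. Both were selected with puromycin, kept at 5% oxygen and on doxycycline for 7 to 10 days, and synchronised in G1. They then received 0, 3, 5 or 10 Gy from a caesium source, with 2 biological replicates in each of 8 groups, or 16 libraries. A library gave 132390 to 1020770 break ends and a median of 2.26 to 21.1 distinct positions per autosomal window. The smallest was shCTRL 3 Gy replicate 2, which stands apart in several values below. Hairpin lines are transduced populations, so a difference between them compares these populations, and the libraries do not measure the HMGB1 protein itself.

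Tumour cells often carry extra or missing copies of chromosomes or of parts of them, and a region present in more copies offers more DNA to any assay that samples the genome evenly. Mouse chromosome 15 carries Myc, a transcription factor gene that drives cell growth, and its neighbour Pvt1, a long noncoding RNA gene often gained together with it. Break ends are also known to gather in transcribed genes, so a window's level mixes the amount of DNA with how often that DNA was broken or captured. Copy number itself was not measured in these libraries, so what copy number and local breakage each add to a level cannot be told apart, with or without genes.

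The 250 bases before the start of 4 genes are shown because these genes hold the highest windows of chromosomes 15 and 19 (Myh9, Malat1 and Ahnak) or lie at the step in level on chromosome 15 (Scube1). They are RefSeq sequences of GRCm38.p6, the assembly of mm10, read 5′ to 3′ on the gene's own strand, with every GGGCGG or its reverse complement CCGCCC, the GC box, in capitals.
Myh9, chr15:77842176-77842425, minus strand: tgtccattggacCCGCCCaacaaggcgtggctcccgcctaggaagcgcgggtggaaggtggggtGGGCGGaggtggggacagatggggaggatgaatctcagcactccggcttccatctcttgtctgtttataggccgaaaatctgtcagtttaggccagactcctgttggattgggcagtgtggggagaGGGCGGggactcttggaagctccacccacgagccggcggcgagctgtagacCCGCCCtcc
Malat1, chr19:5802673-5802922, minus strand: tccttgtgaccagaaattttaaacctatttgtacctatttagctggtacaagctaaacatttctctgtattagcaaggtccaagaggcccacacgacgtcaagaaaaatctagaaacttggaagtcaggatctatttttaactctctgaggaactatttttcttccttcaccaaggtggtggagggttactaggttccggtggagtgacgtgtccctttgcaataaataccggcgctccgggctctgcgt
Ahnak, chr19:8989034-8989283, plus strand: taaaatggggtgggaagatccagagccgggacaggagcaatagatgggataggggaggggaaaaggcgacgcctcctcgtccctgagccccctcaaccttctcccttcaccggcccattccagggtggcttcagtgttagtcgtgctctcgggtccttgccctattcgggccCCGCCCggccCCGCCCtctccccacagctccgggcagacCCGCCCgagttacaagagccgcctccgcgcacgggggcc
Scube1, chr15:83725040-83725289, minus strand: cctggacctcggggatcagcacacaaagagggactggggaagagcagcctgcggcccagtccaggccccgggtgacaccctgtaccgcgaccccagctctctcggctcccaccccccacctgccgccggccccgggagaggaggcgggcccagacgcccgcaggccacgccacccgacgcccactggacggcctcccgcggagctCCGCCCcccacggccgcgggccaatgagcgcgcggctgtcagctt
Of all 32851 promoters in that table, 32.7% held the GC box within these 250 bases, searched on both strands. The sequence before Myh9 held 4 of them, that before Ahnak 3, that before Scube1 1, and that before Malat1 0. Over all 16 libraries together the 250 bases held 2 distinct positions before Myh9, 2 before Malat1, 2 before Ahnak and 0 before Scube1, while 250 bases of the median autosomal window held 0.547. More ends lay beyond the start. The 10 kb after it held 10954 positions at Malat1, 711 at Ahnak and 327 at Myh9, but 20 at Scube1. Per 250 bases these counts come to 273.9, 17.8, 8.18 and 0.5, each more than in the 250 bases before the start. At Myh9 these 10 kb lie outside its high window, which runs from 77700001 to 77800000. Since only 250 bases in front were counted, these values do not place where a high window begins.

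Chromosome 19 had the highest level of the 19 autosomes and chromosome 15 the next. The level of chromosome 19 ran from 1.28 to 1.42 over the libraries, with a median of 1.32 and a mean of 1.33 ± 0.037 (SD, n = 16). The level of chromosome 15 ran from 1.18 to 1.27, with a median of 1.24 and a mean of 1.24 ± 0.022 (SD, n = 16). Both chromosomes lay above 1 in 16 of 16 libraries, and chromosome 19 was above every other autosome in 16 of 16. The autosomes just below them were chromosome 2 at 1.18 ± 0.021 and chromosome 17 at 1.15 ± 0.025, and the lowest was chromosome 14 at 0.768 ± 0.011. Chromosome X had a level of 0.563 ± 0.027. These levels chose the windows and are given without a test.

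**Figure D1:**
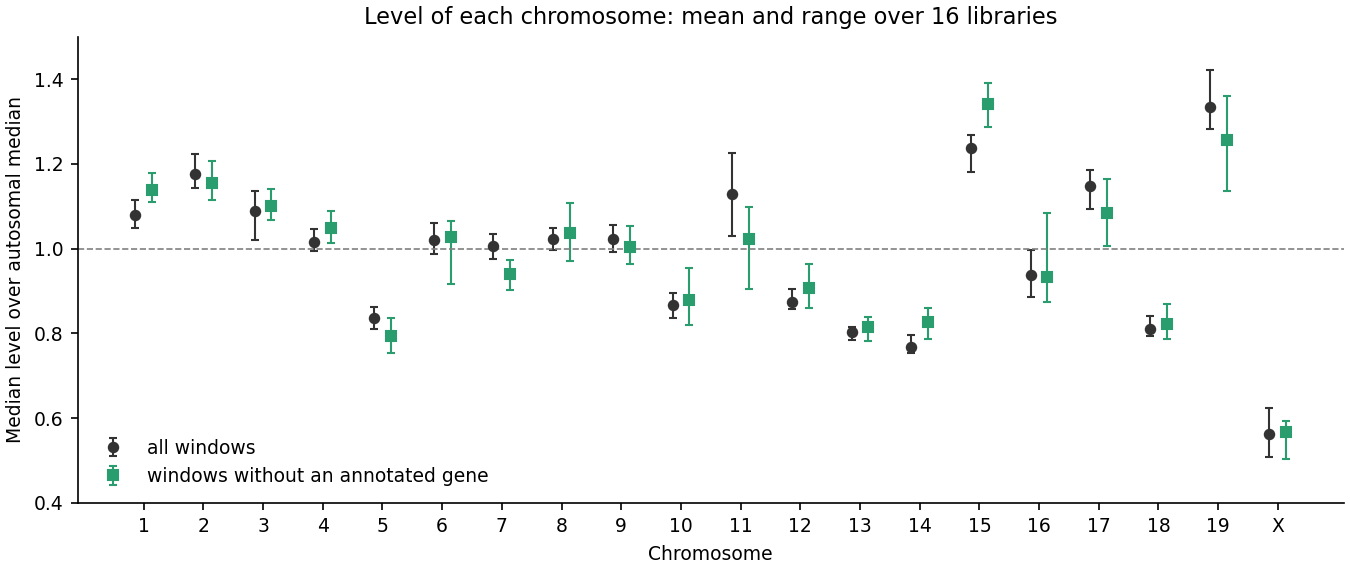
Level of each chromosome (y axis, median of its windows over the autosomal median, no unit) for all windows (circles) and for windows without an annotated gene, taken over such autosomal windows (squares). Symbols are means and bars the lowest to highest of 16 libraries, and chromosomes 15 and 19 lie highest by both measures (1.24 and 1.33 for all windows, 1.34 and 1.26 without genes).

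In windows that overlap no protein-coding or long noncoding gene the order of the leading chromosomes changed. Relative to autosomal windows of the same kind, the 274 such windows of chromosome 15 had a level of 1.34 ± 0.033 (SD, n = 16), between 1.29 and 1.39. The 86 such windows of chromosome 19 had 1.26 ± 0.056, between 1.14 and 1.36. Chromosome 15 was the highest autosome by this measure in 14 libraries and chromosome 19 in the other 2. Chromosome 2 followed at 1.15 ± 0.025 and chromosome 1 at 1.14 ± 0.018. The raised level of chromosomes 15 and 19 was thus also present where no annotated gene lies.

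A least-squares division of each chromosome into segments of at least 2 Mb, in which a level of 1.2 or more counts as raised and one of 0.8 or less as lowered, split chromosome 15 into 4 segments and chromosome 19 into 2. On chromosome 15 the fitted level was 1.25 from 3000001 to 75700000, 2.09 from 75700001 to 83600000, 0.747 from 83600001 to 95700000 and 1.05 from 95700001 to 103900000. On chromosome 19 it was 1.91 from 3000001 to 9100000 and 1.25 from 9100001 to 61300000. Raised segments thus covered 80.6 Mb (79.9%) of chromosome 15 and 58.3 Mb (100%) of chromosome 19, and among the other autosomes at most 47.2%, on chromosome 3. They held 806 of the 1009 windows of chromosome 15 and 580 of the 580 of chromosome 19, where 19.7% of all autosomal windows lay in raised segments. Nothing is read from these shares, since the same levels chose the chromosomes. The long segments at 1.25 lay just inside the threshold of 1.2, and the chromosome 15 segment at 1.05 lay just outside. With a threshold of 1.4 only 7.9 Mb of chromosome 15 and 6.1 Mb of chromosome 19 were raised, which are the gene-dense stretches, and with levels taken over the autosomal mean 7.8 and 6.1 Mb were.

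**Figure D2:**
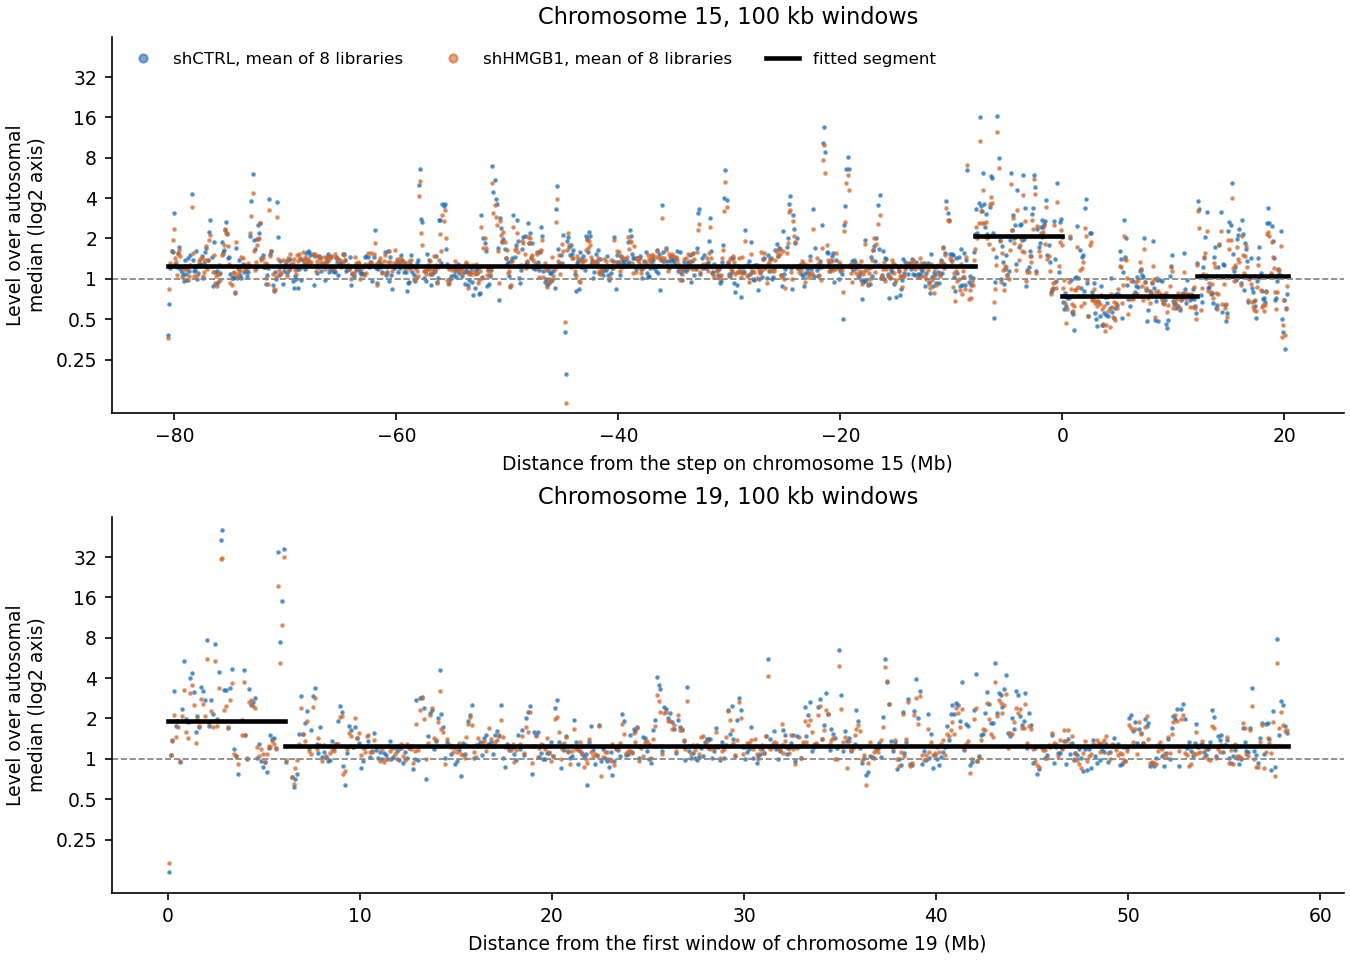
Level of each 100 kb window along chromosomes 15 and 19 (y axis, log2 axis, over the autosomal median) against distance in Mb from the step on chromosome 15 and from the first window of chromosome 19; points are means of 8 libraries per line and black lines the fitted segments. Chromosome 15 runs near 1.25 up to a stretch at 2.09, falls to 0.747 at the step and ends at 1.05, and chromosome 19 runs at 1.25 after a first stretch at 1.91.

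The 2 stretches with the highest fitted levels were also the densest in genes. The segment of chromosome 15 at 2.09 had 28.4 protein-coding gene starts per Mb against 3.7 in the long segment before it, and no window without a gene. The first segment of chromosome 19 had 37.2 per Mb against 9.54 in the rest of the chromosome, and likewise no window without a gene. The last segment of chromosome 15 was nearly as dense, with 23.8 per Mb, but had a level of 1.04 ± 0.111 (SD, n = 16), so a high gene density did not always go with a high level. The ends per distinct position, a separate measure of how many molecules share a position, were 1.63 ± 0.093 (SD, n = 16) and 2.2 ± 0.149 in these 2 segments, 1.26 ± 0.038 in the long segment of chromosome 15 and 1.31 ± 0.038 in that of chromosome 19, against 1.72 ± 0.082 over the other autosomes. Gene density and repeated positions were higher in the short segments than in the long ones, and their part in the level was not tested.

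Comparing windows of like gene content kept the long segments above the other autosomes in each class of at least 14 windows. Windows without a gene in the chromosome 15 segment up to 75700000 had 1.4 ± 0.033 times the level of such windows on the other autosomes, and those of chromosome 19 had 1.28 ± 0.057 times (SD, n = 16). With 1 to 2 protein-coding starts in the window the ratio was 1.3 ± 0.031 in that chromosome 15 segment and 1.3 ± 0.04 in the long segment of chromosome 19. In the gene-dense segment of chromosome 15 the ratio ran from 1.13 ± 0.2 in the 9 windows with 6 or more starts to 2.58 ± 0.619 in the 9 windows with none. In the gene-dense segment of chromosome 19 it ran the other way, from 0.953 ± 0.313 in 5 windows with no start to 2.31 ± 0.292 in 16 windows with 6 or more. Over classes of at least 14 windows the ratio in the long segments ran from 1.3 to 1.4 on chromosome 15 and from 1.19 to 1.34 on chromosome 19. By the same cut it ran from 1.57 to 1.77 in the short segment of chromosome 15 and from 1.38 to 2.31 in that of chromosome 19. Below the cut, the 5 windows with 6 or more starts in the long segment of chromosome 19 had 0.98 ± 0.231.

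**Figure D3:**
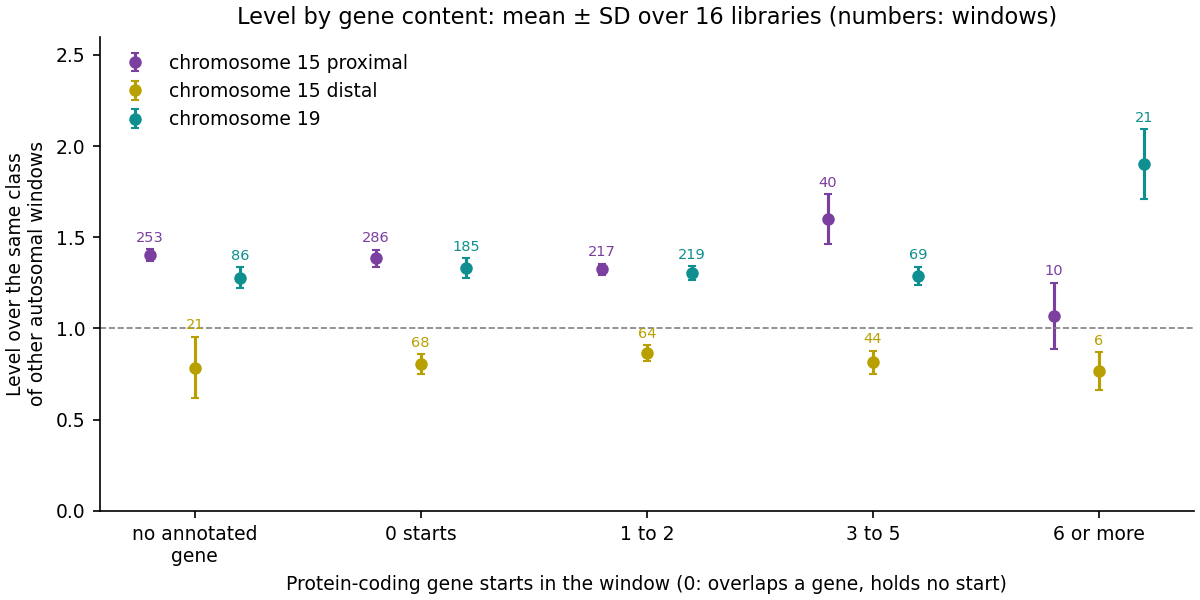
Level of windows on chromosome 15 proximal and distal to the step and on chromosome 19, over the level of other autosomal windows with the same number of protein-coding gene starts (y axis, ratio; x axis, class of windows). Symbols are means and bars the SD over 16 libraries, and the numbers count windows; the proximal part lies at 1.4 and the distal part at 0.786 in windows without a gene.

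Chromosome 15 had a high proximal and a low distal part. The part up to 83600000 had a level of 1.31 ± 0.029 and the part after it 0.854 ± 0.059 (SD, n = 16). The proximal level over the distal level was at its lowest 1.25, at its median 1.56 and at its highest 1.76, with a mean of 1.54 ± 0.118, and it exceeded 1 in 16 of 16 libraries. In windows without a gene, 253 before and 21 after, the levels were 1.38 ± 0.032 and 0.772 ± 0.165 and their ratio 1.84 ± 0.273. The lowest library, shCTRL 3 Gy replicate 2, gave a gene-free ratio of 1.01 and the other 15 gave 1.63 to 2.22, with a mean of 1.89 ± 0.168. That library has a median of 2.26 positions per autosomal window. The place of the step rests on the gene-dense stretch: the segment at 2.09 has no window without a gene, and a division by gene-free windows alone put the end of the high part at 74500000 (252 windows at 1.39) and the start of the low part at 75300001 (22 windows at 0.785).

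At finer scale the counts over all windows fell across Scube1, Mpped1 and Efcab6. Scube1 encodes a secreted cell-surface protein, Mpped1 a metallophosphoesterase-domain protein and Efcab6 a protein with EF-hand motifs. The intervals below were set after the counts were seen. Over all libraries together, the median count per 20 kb was 51.5 in the 1200 kb before 83600001. It was 40.5 in the 240 kb after it, which hold Scube1 and the start of Mpped1. It was 24 in the next 320 kb, which hold Efcab6, Sult4a1 and Pnpla5, and 28 in the 640 kb after that. The count before the step was read in a stretch rich in genes, which moves with it as described above. The windows without a gene held a median of 273 positions over the 16 libraries before the step and 148 after it, with quartiles of 253 and 298 before and of 132 and 159 after, so the upper quartile after the step lay below the lower quartile before it.

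**Figure D4:**
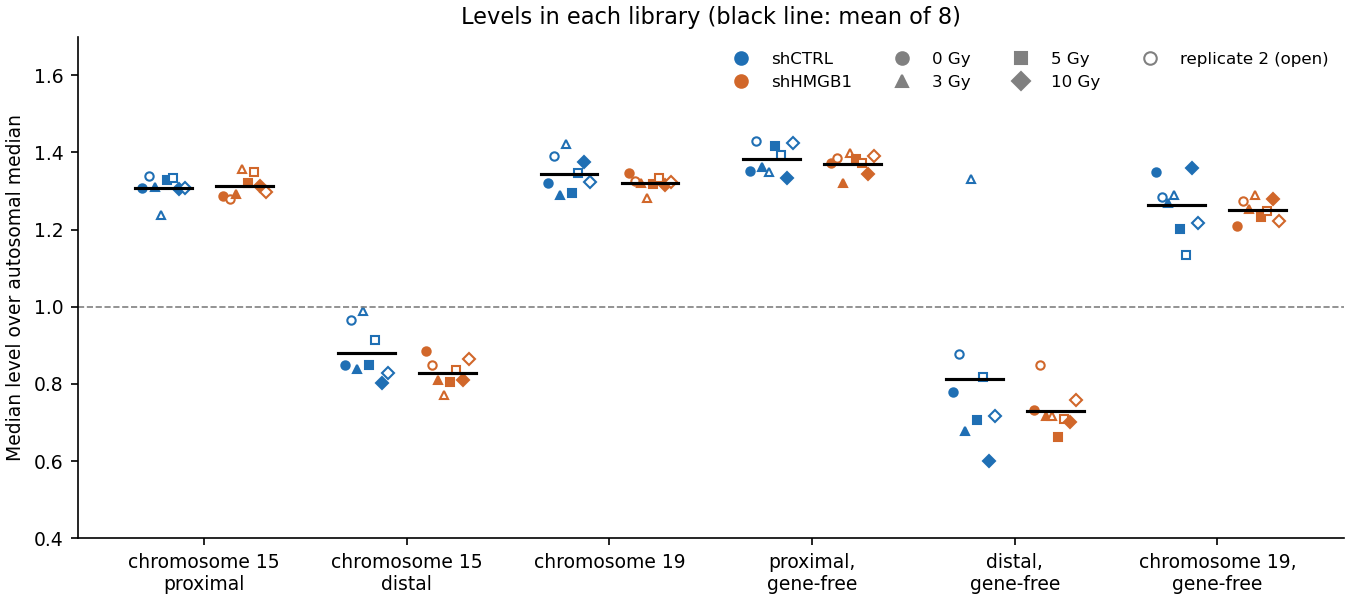
Levels of chromosome 15 proximal and distal to the step and of chromosome 19 in each library (y axis, median level over the autosomal median), for all windows and for windows without a gene; colour gives the hairpin, symbol shape the dose, open symbols replicate 2 and black lines means of 8. Every proximal value lies above every distal one among all windows, and the open triangle at 1.33 in the gene-free distal windows is shCTRL 3 Gy replicate 2.

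Cancer-related and other well-known genes fell on both sides of the step. The level around a gene was taken as the median of the 21 windows within 1 Mb of its start, and 28 of 32 listed genes proximal to the step had at least 1.2, with a median of 1.28. Of the 7 listed distal genes 0 did, with a median of 0.995, and on chromosome 19, 32 of 34 did, with a median of 1.55. Over all 20807 autosomal protein-coding genes 41.2% had at least 1.2 and the median was 1.12. Among all protein-coding genes of the same regions, 88.0% had at least 1.2 proximal to the step, 17.8% distal to it and 88.2% on chromosome 19. The listed genes are thus not set apart from their regions by these counts. Since the same windows chose the region, these counts are a description.

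The 32 listed genes of proximal chromosome 15 had surrounding levels from 1.13 to 2.7. Around Skp2, a ubiquitin ligase subunit that degrades cell cycle inhibitors, it was 1.23 ± 0.086 (SD, n = 16). Around Rictor, a subunit of mTOR complex 2, it was 1.24 ± 0.146. Around Rad21, a cohesin subunit, it was 1.25 ± 0.114, and around Ptk2, the focal adhesion kinase, 1.33 ± 0.194. The neighbouring differences in this order are smaller than the SD over libraries. The 4 proximal genes under 1.2 were Khdrbs3, an RNA-binding protein gene, at 1.13 ± 0.07, Ccn3, a secreted matrix protein gene, at 1.16 ± 0.099, Has2, the hyaluronan synthase gene, at 1.17 ± 0.068, and Rrm2b, a ribonucleotide reductase subunit gene, at 1.19 ± 0.116. In the gene-dense stretch the values were higher, 2.7 ± 0.615 around the helicase gene Recql4, 2.06 ± 0.443 around Pdgfb, a platelet-derived growth factor, and 1.98 ± 0.343 around the acetyltransferase gene Ep300. Distal to the step, Vdr, the vitamin D receptor gene, had 1.06 ± 0.166, the epithelial keratin genes Krt8 and Krt18 had 0.981 ± 0.143, and the integrin gene Itga5 had 0.888 ± 0.123.

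The genes of chromosome 19 named here lay between 1.18 and 2.68 by the same measure. Around Fas, a death receptor, it was 1.25 ± 0.114 (SD, n = 16), and around Tcf7l2, a Wnt-pathway transcription factor, 1.29 ± 0.155. Jak2, a cytokine receptor kinase, and Cd274, which encodes the checkpoint ligand PD-L1, lie together and had 1.79 ± 0.219 and 1.76 ± 0.213. Sufu and Nfkb2, a Hedgehog pathway inhibitor and a subunit of NF-κB, share a window and had 2.17 ± 0.401. Around Smarca2, a chromatin remodelling ATPase gene, the level was under 1.2, at 1.18 ± 0.105. The highest surroundings belonged to the gene-dense first segment, with 2.68 ± 0.61 around the AP-1 subunit gene Fosl1.

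Single windows reached much higher levels, and each of the highest was filled by 1 or 2 genes. On chromosome 19 the 2 highest windows, at 5800001 and 5700001, had levels of 41.4 ± 14.9 and 36.9 ± 12.4 (SD, n = 16) and ranked 5 and 6 among 23831 autosomal windows. The gene with most of their positions was Malat1, an abundant nuclear long noncoding RNA, with 5154 of 8162 and 5755 of 7390. The window at 9000001 reached 34.5 ± 8.67, with 7394 of 7459 positions in Ahnak, a very large scaffold protein gene. The window at 8700001 reached 27.1 ± 15.8, with 4035 of 4951 positions in Snhg1, a noncoding RNA that hosts small nucleolar RNAs. There the smallest library was highest at 79, while the shHMGB1 libraries lay between 17.3 and 24.5.

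On chromosome 15 the highest window, at 77700001, reached 14.4 ± 3.66 (SD, n = 16), with 2704 of 3038 positions in Myh9, the heavy chain of nonmuscle myosin. The window at 76100001 reached 13.5 ± 4.49, with 2452 of 2760 positions in Plec, which encodes the cytoskeletal linker plectin. The other 3 of the 5 highest were windows of Pvt1. In 9 of these 10 highest windows the lowest library was shHMGB1 3 Gy replicate 2. The lowest windows differed in gene content. The window at 38800001 on chromosome 15, without an annotated gene, had 0.157 ± 0.122, and the first window of chromosome 19 had 0.156 ± 0.139. Also among the 5 lowest of chromosome 15 were the windows at 103400001 and 103300001, with 3 protein-coding starts each. They had 0.426 ± 0.139 and 0.435 ± 0.175.

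The Myc region, taken as 61500001 to 62500000 on chromosome 15, had a level of 3.83 ± 0.794 (SD, n = 16), from 2.66 to 5.66. The rise lay inside 2 genes and not across the megabase. The 4 windows before Myc had 1.17 ± 0.453, 1.14, 1.31 and 1.11, near the long segment's own level. The window with Myc had 2.1 ± 0.798, and the windows of Pvt1 at 62000001, 62100001 and 62200001 had 9 ± 2.04, 11.9 ± 2.94 and 7.46 ± 2.55. The next 2 windows had 1.69 and 1.47. The median of the 21 windows around Myc, which single windows hardly move, was 1.37 ± 0.139.

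The rise spanned Myc, began again at the annotated start of Pvt1 and ended inside Pvt1. The 100 kb before Myc had a level of 1.04 ± 0.322 (SD, n = 16), the 4.984 kb of Myc itself 22.2 ± 15.2 and the 47.611 kb between Myc and Pvt1 1.31 ± 0.368. The 10 kb before the start of Pvt1 held 25 positions over all libraries and the first 10 kb after it 417, levels of 1.04 ± 0.86 and 19.7 ± 5.18. The first 230 kb of Pvt1 had 11.7 ± 3.04, its last 100 kb 1.77 ± 0.544 and the 100 kb after it 1.52 ± 0.422. In all 16 libraries the first 230 kb of Pvt1 were above the stretch between Myc and Pvt1, and the lowest of the former, 6.59, was above the highest of the latter, 1.99. Myc itself rests on 212 positions in all, 6 to 29 in a library. Its highest value, 65.4 in shCTRL 5 Gy replicate 2, rests on 29 positions and the next, 53.2 in shCTRL 3 Gy replicate 2, on 6.

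**Figure D5:**
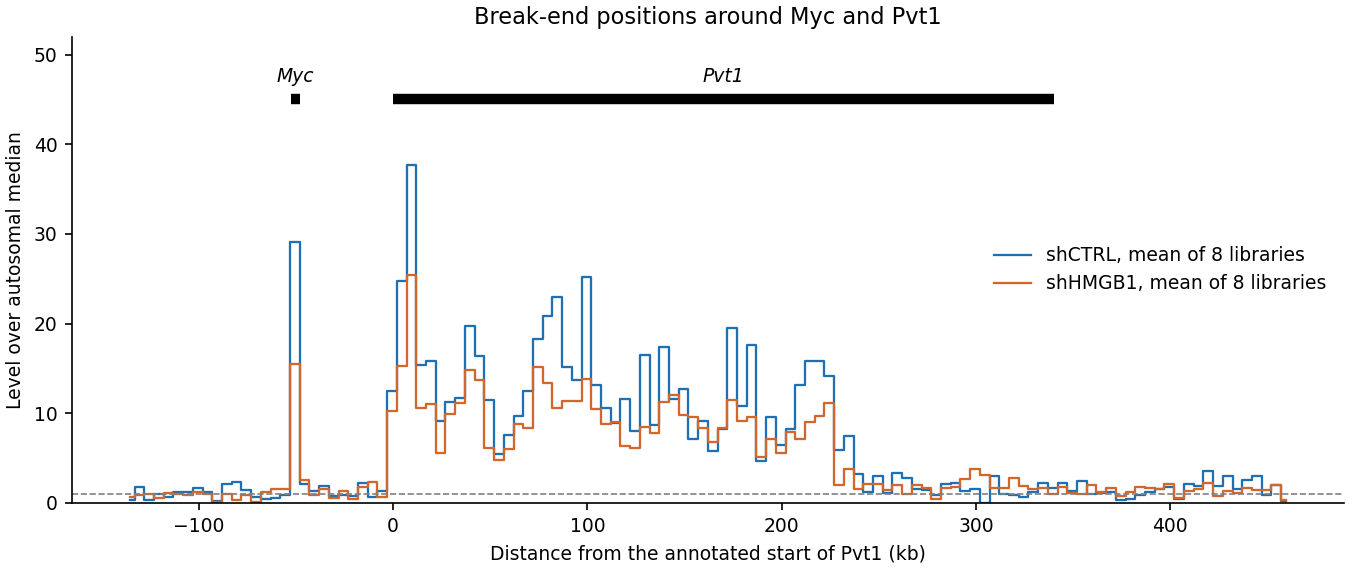
Level of break-end positions in 5 kb bins (y axis, over the autosomal median) against distance in kb from the annotated start of Pvt1; lines are means of 8 libraries per line and black bars the extents of Myc and Pvt1. The level leaves the flanking range of about 1 within Myc and again at the start of Pvt1, and falls after the first 230 kb of Pvt1 in both lines, to a mean of 1.77 over its last 100 kb.

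The 2 hairpin lines had nearly the same profile. Over the windows of chromosome 15 the log2 levels of shCTRL and shHMGB1 had a Pearson r of 0.928 across 1009 windows, and over chromosome 19 of 0.947 across 580. The other autosomes gave 0.927, and replicates 1 and 2 of a line gave 0.854 to 0.919 on chromosome 15. A replicate number within a line has 4 libraries and a line 8, so these values are not like for like. These correlations are across windows, which share gene content, and are given as a description. Raised segments covered 80.6 Mb of chromosome 15 and 58.3 Mb of chromosome 19 whether only the shCTRL or only the shHMGB1 libraries were used. The step ratio was 1.5 ± 0.125 in shCTRL and 1.59 ± 0.098 in shHMGB1 (SD, n = 8), with overlapping values, and the exact two-sided permutation test within doses gave p = 0.144 (adjusted p = 0.347 over the 4 tests of the step).

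Neither chromosome's level differed between the lines past the test. For chromosome 15 the log2 difference, shHMGB1 minus shCTRL, was -0.006 (exact two-sided permutation test within doses, p = 0.631, adjusted p = 0.947 over 6 tests, lower in 3 of 4 doses). For chromosome 19 it was -0.025 (exact p = 0.265, adjusted p = 0.796, lower in 3 of 4 doses). With levels taken over the autosomal mean both differences turned positive, to 0.13 and 0.11, each higher in 4 of 4 doses with an adjusted p = 0.0556 by the same exact permutation test.

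The Myc region was lower in shHMGB1 in every dose, but the difference did not pass the correction. In shCTRL replicates 1 and 2 had 3.39 and 4.7 at 0 Gy, 3.69 and 4.9 at 3 Gy, 4.46 and 5.66 at 5 Gy and 3.44 and 4.4 at 10 Gy. In shHMGB1 they had 3.41 and 3.69, 3.49 and 2.66, 3.25 and 2.8, and 3.59 and 3.76. The groups overlap at 0 and 10 Gy and do not at 3 and 5 Gy, and within shCTRL replicate 2 was above replicate 1 at every dose. The log2 difference was -0.37 (exact two-sided permutation test within doses, p = 0.0216, adjusted p = 0.13 over 6 tests, lower in 4 of 4 doses). With levels taken over the autosomal mean it was -0.23 (adjusted p = 0.0556 by the same exact permutation test). In libraries thinned to equal numbers of ends it was -0.34 (adjusted p = 0.184 by the same exact permutation test), lower in 3 of 4 doses. Leaving out 1 library at a time gave -0.43 to -0.31. Whether the difference passed the correction turned on which library was left out, and most such runs did not pass. By line, the first 230 kb of Pvt1 had 13.6 ± 2.96 in shCTRL and 9.86 ± 1.74 in shHMGB1 (SD, n = 8), and Myc itself 29.2 ± 19.3 and 15.3 ± 4.01.

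Window by window, edgeR's quasi-likelihood test on counts of distinct positions called 0 of 1005 windows of chromosome 15 and 0 of 579 of chromosome 19 between the lines at a Benjamini-Hochberg adjusted p under 0.05, where 0.0361% of the 24909 windows tested were called, 9 in all and all lower in shHMGB1. At an unadjusted p under 0.05 there were 106 windows (10.5%) on chromosome 15, 65 of them lower in shHMGB1, and 48 (8.29%) on chromosome 19, 35 of them lower, against 8.83% of all windows. DESeq2 also called 0 on these chromosomes and 5 in all (0.0201%). Without shHMGB1 3 Gy replicate 1 the count on the 2 chromosomes was 20 of 1587 (1.1% of all windows called), without shCTRL 3 Gy replicate 1 it was 5 (0.474%), without shCTRL 5 Gy replicate 1 it was 2 (0.0797%) and without shCTRL 0 Gy replicate 1 it was 1 (0.0957%), each of them lower in shHMGB1. With the replicate number as a block within each line it was 10 of 1584 (0.851% of all windows), likewise all lower in shHMGB1.

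The windows of the highest genes had lower estimates in shHMGB1, and none passed the test. At Snhg1 the edgeR log2 difference was -0.68 with a standard error of 0.19 (adjusted p = 0.123), at the Malat1 window at 5800001 -0.63 with a standard error of 0.2 (adjusted p = 0.203), and at Plec -0.54 with a standard error of 0.18 (adjusted p = 0.237). The 3 windows of Pvt1 had -0.37, -0.38 and -0.41 with adjusted p from 0.425 to 0.504, and Myh9 -0.35 with adjusted p = 0.566. Leaving out 1 library at a time gave log2 differences of -0.85 to -0.42 at Snhg1, -0.72 to -0.52 at Malat1 at 5800001 and -0.77 to -0.39 at Plec. At Ahnak at 8900001 the range was -0.67 to -0.42. Whether these windows passed turned on which library was left out, and most alternatives left them uncalled. The mean number of positions per autosomal window exceeded the median 1.33-fold in shCTRL and 1.21-fold in shHMGB1, so the weight of the highest windows in a library moved with the line genome-wide. Depth also went partly with the line. The median of distinct positions per autosomal window was 2.26 to 16.8 in shCTRL libraries and 13.1 to 21.1 in shHMGB1 libraries. In libraries thinned to equal numbers of ends, the windows of Malat1 at 5700001 and Ahnak at 9000001 gave 0.15 and 0.31. The other highest windows stayed lower in shHMGB1, but the size of their differences varied with the processing. Over all alternatives the weakest estimates were -0.04 at Myh9, -0.14 at Snhg1 and -0.24 at Malat1 at 5800001. At the 3 windows of Pvt1 the weakest were -0.18, -0.05 and -0.25, at Plec -0.34 and at Ahnak at 8900001 -0.40. The part of depth and of the highest windows' weight in these differences was not tested.

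Counts summed over segments gave narrower intervals, and again 0 of the 6 segments was called by edgeR between the lines, as were 0% of the 128 autosomal segments. At an unadjusted p under 0.05 there were 3 of 6, against 47.7% of all segments. The long segment of chromosome 15 had a log2 difference of 0.06 (95% interval 0.00 to 0.13) and that of chromosome 19 one of 0.03 (95% interval 0.00 to 0.07), with both lower bounds below 0. The lowered segment of chromosome 15 had 0.01 (95% interval -0.06 to 0.07), the gene-dense segment -0.16 (95% interval -0.30 to -0.03) and the last segment -0.12 (95% interval -0.23 to -0.01). The largest estimate was that of the first segment of chromosome 19, -0.28 (95% interval -0.46 to -0.11, edgeR adjusted p = 0.0704). DESeq2 called 1 of the 6 and 20.3% of all segments. Without shCTRL 3 Gy replicate 1 edgeR called 5 of the 6 and 60.2% of all segments, and without shHMGB1 3 Gy replicate 1 it called 4 and 52.3% (83.3% and 66.7% of the 6). With the replicate number as a block within each line it called 4 of the 6 and 57.8% of all segments. The count of 0 thus turns on single libraries and on the block, and with 6 segments nothing is read from the distance between these shares and those over all segments.

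Irradiation moved none of these values past a test. The log2 difference of irradiated minus 0 Gy libraries was 0.00 for chromosome 15 (exact two-sided permutation test within lines, p = 0.981, adjusted p = 0.985), -0.02 for chromosome 19 (exact p = 0.417, adjusted p = 0.834) and 0.00 for the Myc region (exact p = 0.985, adjusted p = 0.985). The step ratio gave 0.09 (exact permutation p = 0.173, adjusted p = 0.347). Between windows, edgeR called 0 of 1005 on chromosome 15 and 0 of 579 on chromosome 19, where 0% of 24909 windows were called. At an unadjusted p under 0.05 there were 85 (8.46%) and 33 (5.7%), against 7.15% of all windows, and DESeq2 called 0 as well.

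Among the segments edgeR also called 0 of 6 after irradiation, where 0% of the 128 segments were called. At an unadjusted p under 0.05 there were 2 of 6, against 17.2%, and DESeq2 called 0 of the 6 and 0.781% of all. The estimates were 0.07 (95% interval 0.00 to 0.15) for the long segment of chromosome 15, with a lower bound below 0, and 0.02 (95% interval -0.02 to 0.06) for that of chromosome 19. They were -0.16 (95% interval -0.31 to 0.00) and -0.19 (95% interval -0.39 to 0.01) for the gene-dense segments of chromosomes 15 and 19. The upper bound of the former lay just below 0. The last segment of chromosome 15 had -0.14 (95% interval -0.26 to -0.01) and the lowered segment -0.01 (95% interval -0.08 to 0.07). Without shCTRL 3 Gy replicate 2 the count was 2 of 6 (18.8% of all segments) and without shHMGB1 3 Gy replicate 1 it was 1 (7.81%). With the replicate number as a block within each line it was 1 as well, the first segment of chromosome 19 (15.6% of all segments). A difference between the lines in the response to irradiation, edgeR's interaction contrast, was called in 0 of the 6 segments and 0 of the 1584 windows, and in 0% of all segments and windows. At an unadjusted p under 0.05 it gave 78 of 1584 windows, against 4.96% of all, and 0 of the 6 segments, against 3.91%. DESeq2 called 0 as well.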

How the data were processed

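The deposited files list, for each cluster of break ends in a BLISS library, its interval, the end position of every molecule and a count of molecules, with no strand. The authors' counts are raw counts, not normalised. Per the submitters' processing notes, the build was mm10 and the tools included BWA 0.7.5-r404, Trimmomatic 0.32, UMI-tools, bedtools and SAMtools; settings are not given in the sources used here. The members, gene lists and tests were chosen with earlier results of these data known.

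Distinct positions were counted in 100 kb windows, and each count was divided by the library's median over autosomal windows, interpolated within tied counts because counts are small; this choice was made after seeing them. Windows needed 20 positions over all libraries. The log2 of each window's mean level over libraries was split into segments by least-squares optimal partitioning (minimum 20 windows, penalty 10 times the noise variance times ln n). Counts were tested with edgeR 4.0.16 (TMM, filterByExpr, glmQLFit and glmQLFTest on 8 group means; DESeq2 1.42.0 as alternative) in R 4.3.3, with Benjamini-Hochberg adjustment over all windows or segments; levels by exact permutation within doses or lines. The tests and the segmentation were checked on simulated data. Both ends of a block raised 1.2-fold were found within 10 windows in 2 of 40 runs, against 38 at 1.3-fold and 40 at 1.5-fold. Between lines, edgeR called 131 of 197 windows changed 2-fold, with 5 false calls. It called 19 of 20 segments changed 1.2-fold, with 1 false call. The spread between the simulated libraries was fixed in advance and not estimated from these data. These shares therefore do not give the power of the tests on the real libraries. Genes came from GENCODE M21. Python 3.11.15 did the rest. Named windows were the 5 highest and 5 lowest of each chromosome, windows at the ends of raised segments, any called, and those of 39 listed genes on chromosome 15 and 34 on chromosome 19. Alternatives were all break ends, 500 kb windows, the mean as reference, no filter, windows without genes, thinned libraries, each line alone, other segment settings, other normalisations, a replicate block and each library left out. Other data types of the series were not analysed here, and some listed genes are counted but not reported by name.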

Additional observations from a re-analysis of the deposited data

Results flagged for a closer look

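Gaps between the highest or lowest library and the others of its line were measured for 56 sets of 8 libraries. The limit for a single distant value was exceeded in 8 sets, where chance gives about 1 in 20 independent sets, or 2.8. Many sets share windows and some hold the same values, so the 8 are not independent and nothing is read from that difference. In 5 of the 8 the distant library was the smallest, shCTRL 3 Gy replicate 2. It was the lowest of the shCTRL libraries for the whole of chromosome 15 at 1.18, for the part proximal to the step at 1.24 and for the long first segment at 1.17. It was the highest for the gene-free windows of the lowered segment at 1.58 and for all gene-free windows distal to the step at 1.33. Without it the mean gene-free level distal to the step was 0.734 ± 0.072 (SD, n = 15). In the last segment of chromosome 15 shHMGB1 3 Gy replicate 2 was lowest of its line at 0.791, with the next library at 0.953. For Myc shHMGB1 5 Gy replicate 2 was lowest at 7.15, with the next at 13.8. Between Myc and Pvt1 shHMGB1 5 Gy replicate 1 was highest at 1.99, with the next at 1.49.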

How the results depend on the processing

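Taking the autosomal mean as reference, which exceeds the median 1.27-fold, set the levels of chromosomes 15 and 19 and of the Myc region to 0.983, 1.06 and 3.00 and the raised length to 7.8 and 6.1 Mb; a threshold of 1.4 gave 7.9 and 6.1 Mb. Windows without a gene gave levels of 1.34, 1.26 and 1.51. Leaving out each library in turn gave 1.236 to 1.242, 1.33 to 1.34 and 3.71 to 3.91, with unchanged raised lengths. The log2 differences near 0 changed sign with the mean as reference, to 0.127 (chromosome 15) and 0.108 (chromosome 19) between lines and 0.059, 0.040 and 0.057 (Myc region) for irradiation, all short of the threshold, and the difference of the Myc region between lines was -0.235. All break ends gave 0.0081 for chromosome 15 between lines and 0.010 for the Myc region after irradiation. Thinned libraries gave 0.035 and 0.052 for chromosome 15 and the Myc region after irradiation, and the plain median, chosen after seeing the data, gave 0.0078 for chromosome 15. Leaving out libraries gave -0.013 to 0.0012 and -0.0098 to 0.0092 for chromosome 15 between lines and after irradiation, and -0.43 to -0.31 and -0.119 to 0.116 for the Myc region. In the thinned libraries the lowered segment of chromosome 15 gave -0.0093 between lines and 0.031 after irradiation, and the windows of Malat1 at 5700001 and Ahnak at 9000001 gave 0.15 and 0.31 between lines. Leaving out libraries gave that segment -0.016 to 0.0054 after irradiation. The cause of these changes was not tested.

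Windows called between lines on chromosomes 15 and 19 numbered 1 with 500 kb windows (0.784% of all such windows), 2 with all break ends (0.0398% of all) and 0 to 20 with a library left out. Segments called numbered 1 by DESeq2 and 0 to 5 with a library left out, and 0 to 2 after irradiation. With the replicate block 1 window was called between lines (0.0803% of all). With a replicate block within each line 10 windows (0.851% of all) and 4 segments (57.8% of all) were called between lines and 1 segment (15.6% of all) after irradiation. The permutation tests with the replicate block gave an adjusted p = 0.188 for the Myc region between lines and changed no other call. Same-numbered libraries deviated together within shCTRL (correlations of 0.164 to 0.222) and less within shHMGB1 (0.025 to 0.119), and between lines correlations ran from -0.299 to 0.033, so by a correlation over 0.1 in every pair the numbers go with shared deviations in shCTRL, but they do not pair the libraries of shHMGB1 or those of different lines. Correction for GC content was not run, for want of an mm10 sequence here. In the smallest library a median of 2.26 positions per window limits what single windows show.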
